A study of Homo sapiens with 6 samples.

Results

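The 43 genes described here encode the proteins that copy DNA and the enzymes that supply its deoxynucleotide building blocks. They were chosen by name, with earlier results of these data known. The list holds 11 genes of origin licensing, 8 of origin firing and helicase activation, and 5 of the sliding clamp and its loader. It also holds 8 of the polymerases and primase, 6 of strand maturation and single-strand binding, and 5 of deoxynucleotide supply. All 43 were measured, each by exactly 1 probe set that carries a single gene symbol, out of 18417 genes in all. The samples are THP-1 cells, an established line of human monocytic leukaemia origin, so both groups come from a single transformed line. In the PMA group (3 arrays), cells received 200 nM of the phorbol ester PMA for 3 days, which turns them into macrophage-like cells, and then rested for 3 days without it. The unstimulated group (3 arrays) received no PMA. Both groups were grown in RPMI medium with fetal serum, glutamate and 2-mercaptoethanol, and total RNA was extracted with trizol and hybridised to single-channel Affymetrix arrays after biotin labelling.

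A cell copies its genome once per cycle. In G1 the origin recognition complex, CDC6 and CDT1 load the ring-shaped MCM2 to MCM7 helicase onto origins, a step called licensing, which geminin blocks afterwards. In S phase the CDC7 kinase with its activator DBF4, together with CDC45 and the GINS complex, turns the loaded ring into a running helicase. Primase and polymerase alpha then start each strand, the PCNA clamp and its RFC loader tether polymerases delta and epsilon, and FEN1 and LIG1 seal the lagging strand. Many of these genes are transcribed by E2F factors as cells leave G1, and THP-1 cells are known to leave the cell cycle when PMA differentiates them.

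All values are the authors' log2 values, so a difference of 1 is a 2-fold difference. A fold change is the PMA mean minus the unstimulated mean, given ± its standard error from limma, a linear model that shares information on the spread across genes, with n = 3 arrays per group. A gene is said to have fallen or risen where its Benjamini-Hochberg adjusted p over all 18417 genes was below 0.05. Array medians lay between 6.10 and 6.25, and every member but DBF4 averaged above all of them. Arrays of the PMA group correlated at 0.988 to 0.993, those of the unstimulated group at 0.989 to 0.995, and arrays of different groups at 0.958 to 0.968. The monocyte factor SPI1 averaged 9.95 on the PMA arrays and 9.76 on the unstimulated arrays, and 5 of 5 macrophage markers rose with PMA. Of 6 THP-1 and monocyte markers measured, ITGAM, CSF1R and CD14 rose and LYZ fell. Of 13 measured markers of T, B, erythroid, epithelial and fibroblast cells, 11 averaged below every array median, none rose and 2 fell (the B cell gene CD79A and the keratin KRT18). Whether the replicates are separate cultures is not stated, so the p-values reflect only how far these arrays scatter, possibly for technical reasons, and the small number of arrays limits their precision.

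A few promoters are shown because 18 of the members fell and E2F factors are known to act at such genes. Regulation by E2F factors was not tested. The windows run from 250 bases before to 50 bases after the annotated start and come from RefSeq (GRCh38.p14), which holds 50 windows for 36 of the 43 members. Capitals mark 3 kinds of match, searched on both strands: the E2F motifs TTTCCCGC, TTTCGCGC, TTTGCCGC and TTTGGCGC, the CHR motifs TTTGAA and TTCGAA, and CCAAT. The 3 largest falls among members with a window (CDC7, CDT1, PRIM1) and the smallest change (RRM2) are shown, with MCM6 added after its matches were seen because it holds the most E2F matches. CDC7 and RRM2 have 2 windows each, and the one with more matches is printed.
CDC7 at chr1:91500862-91501161 (plus strand): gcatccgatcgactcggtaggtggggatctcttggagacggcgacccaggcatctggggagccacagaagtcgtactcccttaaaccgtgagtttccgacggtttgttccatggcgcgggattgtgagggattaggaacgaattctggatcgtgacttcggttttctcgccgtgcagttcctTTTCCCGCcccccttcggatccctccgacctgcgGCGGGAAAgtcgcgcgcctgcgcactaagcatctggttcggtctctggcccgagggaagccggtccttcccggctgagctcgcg
CDT1 at chr16:88803539-88803838 (plus strand): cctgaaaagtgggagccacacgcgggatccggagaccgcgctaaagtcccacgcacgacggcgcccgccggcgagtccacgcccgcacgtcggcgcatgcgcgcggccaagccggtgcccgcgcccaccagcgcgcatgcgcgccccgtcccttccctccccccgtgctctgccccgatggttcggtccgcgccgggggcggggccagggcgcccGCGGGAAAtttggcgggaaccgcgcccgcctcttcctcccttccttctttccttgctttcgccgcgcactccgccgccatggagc
PRIM1 at chr12:56752274-56752573 (minus strand): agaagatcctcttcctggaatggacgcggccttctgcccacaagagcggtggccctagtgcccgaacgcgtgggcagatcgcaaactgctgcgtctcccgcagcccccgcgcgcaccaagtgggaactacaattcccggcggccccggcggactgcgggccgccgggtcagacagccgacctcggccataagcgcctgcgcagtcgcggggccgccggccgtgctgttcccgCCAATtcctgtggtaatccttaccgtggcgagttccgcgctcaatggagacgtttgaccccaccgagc
MCM6 at chr2:135876394-135876693 (minus strand): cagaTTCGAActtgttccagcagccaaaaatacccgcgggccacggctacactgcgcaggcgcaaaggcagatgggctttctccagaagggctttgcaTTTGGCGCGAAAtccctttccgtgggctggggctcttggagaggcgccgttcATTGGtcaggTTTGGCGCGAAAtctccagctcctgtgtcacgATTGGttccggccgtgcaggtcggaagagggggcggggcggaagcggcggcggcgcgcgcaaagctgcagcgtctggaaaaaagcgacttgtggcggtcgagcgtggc
RRM2 at chr2:10122489-10122788 (plus strand): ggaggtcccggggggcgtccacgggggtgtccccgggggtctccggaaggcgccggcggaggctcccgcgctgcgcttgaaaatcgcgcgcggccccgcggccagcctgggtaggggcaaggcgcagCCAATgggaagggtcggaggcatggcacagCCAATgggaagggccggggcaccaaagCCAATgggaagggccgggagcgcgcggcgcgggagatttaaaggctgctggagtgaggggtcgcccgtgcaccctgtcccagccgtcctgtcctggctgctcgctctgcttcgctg

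The CDC7 window holds 2 E2F matches and the CDT1 window 1. The MCM6 window holds 4, in 2 overlapping pairs, together with 1 CHR match and 2 CCAAT matches. PRIM1 has 1 CCAAT match and no E2F match, and RRM2 has 3 CCAAT matches and no E2F match. An E2F motif stood in 40.0% of the members' windows, against 4.15% of the windows of all tested genes and 3.31% of all windows in the table. By gene, 11 of the 16 fallen members with a window had one, as did 9 of the 20 members with a window that did not pass, against 5.51% of tested genes. By window the shares were closer, at 44.0% for fallen members and 36.0% for those that did not pass. CCAAT stood in 25 of the members' 50 windows, against 34.6% of all windows and 34.6% of those of tested genes. CHR stood in 4 of the 50, against 16.4% and 13.6%. By window, CCAAT stood in 44.0% for fallen members and 56.0% for those that did not pass, and CHR in 8.0% for each. A match is a string of letters in a window and does not show that a factor binds there.

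Of the 43 members 18 fell in PMA-differentiated cells, most by less than 2-fold, none rose and 25 did not pass. The fallen share was 41.9%, where 13.2% of all genes fell and 13.2% rose. Of the 43 members 40 lay above the median gene in brightness, and 18.0% of the genes above that median fell. The members' median log2 fold change was −0.31, against −0.03 over all genes, and 40 of 43 lay below 0, against 55.2% of all genes. Every PMA array was below every unstimulated array for 26 members and above for none, where 22.0% of all genes had every PMA array below and 19.2% had every PMA array above. At an unadjusted p below 0.05, limma placed 24 members lower and 0 higher, where it placed 3481 of all 18417 genes lower and 3251 higher. A gene-wise test without shared variance called 11 members lower and 0 higher after adjustment, where it called 7.92% of all genes lower. Only CDC7 and CDT1 both fell and changed at least 2-fold, where 3.20% of all genes did so downwards. For 7 members a protein-coding gene lies over the same stretch in the RefSeq table. Of these neighbours 4 passed: PRPF38A at ORC1 (log2 fold change −0.43), RAB23 at PRIM2 (0.99), WSB2 at RFC5 (0.90) and GSE1 at GINS2 (−1.76). AP4M1 at MCM7 did not pass (0.09, adjusted p = 0.638), and UMAD1 at RPA3 and ENOSF1 at TYMS were not among the genes tested. Over all genes 26.4% passed in either direction. The strand of the probes was not given in the sources used here, so signal from such neighbours could not be told apart. In bulk RNA a smaller share of cells in S phase and less of each transcript per cell cannot be told apart.

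**Figure D1:**
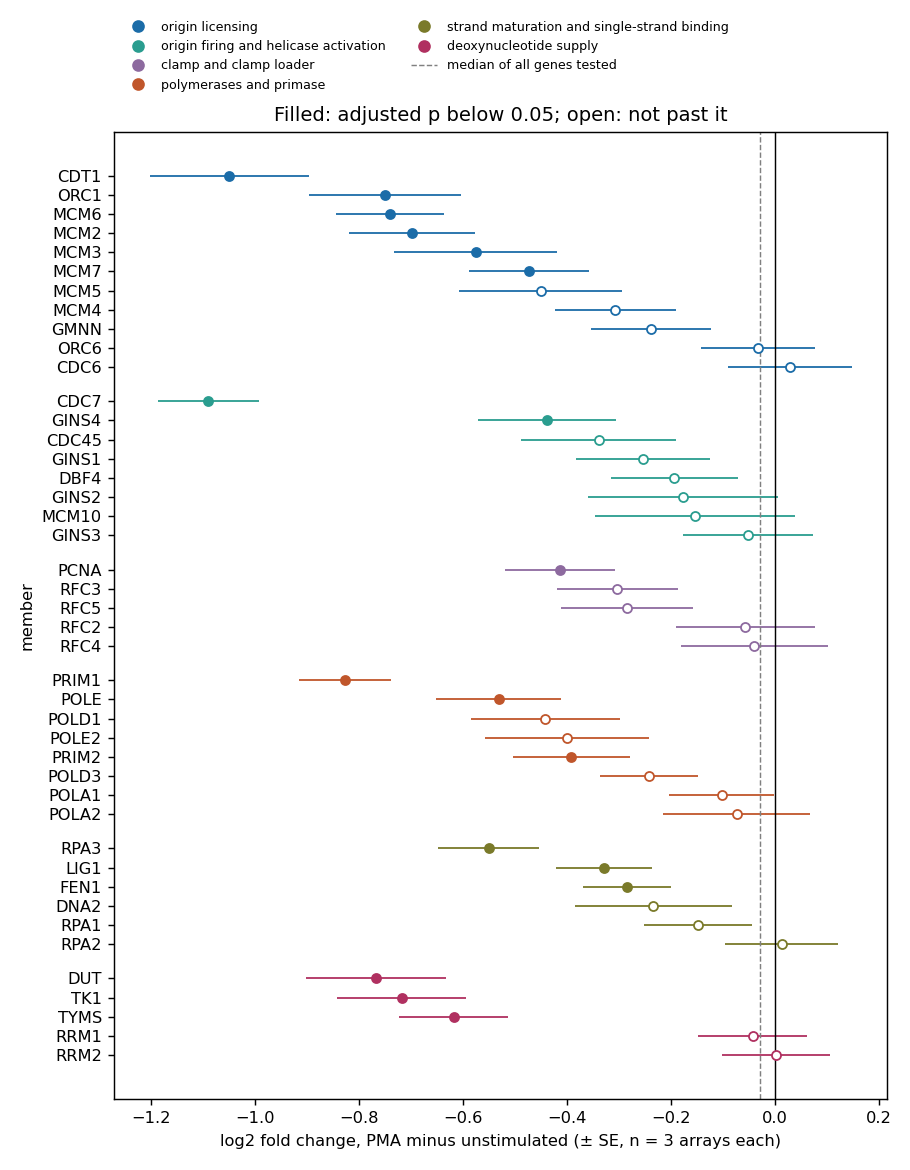
Log2 fold change of each of the 43 members, PMA minus unstimulated, with its standard error (n = 3 arrays each), by role. Filled points passed an adjusted p of 0.05, and the dashed line is the median of all genes at −0.03. CDC7 and CDT1 lie furthest left, and RRM2, RPA2 and CDC6 lie at 0.00 to 0.03.

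The counts depended on single arrays. Leaving out PMA replicate 1 left 11 fallen members, without PMA replicate 2 there were 10, without PMA replicate 3 there were 14, and without unstimulated replicates 1, 2 and 3 there were 14, 18 and 12. The share of all genes that fell moved too: in the same order it was 8.67%, 9.54%, 13.3%, 12.5%, 9.87% and 9.09%, against 13.2% with all arrays. Of the 18 fallen members, 10 were called in all 6 of these fits: ORC1, CDT1, MCM2, MCM6, CDC7, PRIM1, RPA3, TYMS, TK1 and DUT. The other 8 (MCM3, MCM7, GINS4, PCNA, PRIM2, POLE, FEN1 and LIG1) lost their call without at least 1 array. Centring every array on its own median left 11 fallen members, where 9.78% of all genes fell, and a members' median of −0.22. Centring also moved the share of all calls that were higher to 61.8%, against 50.1% here.

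**Figure D2:**
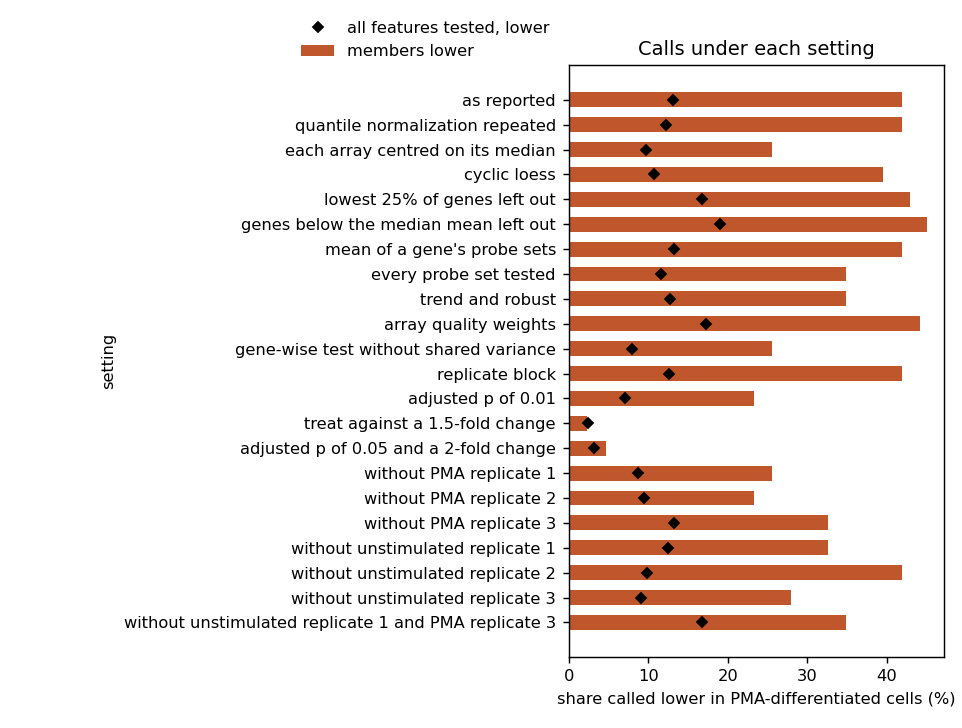
Share of members called lower with PMA (bars, %) and share of all features called lower (diamonds, %) under each way of processing the values or leaving out arrays. As reported, 41.9% of members and 13.2% of all genes were lower, and with a test against a 1.5-fold change 1 member remained past the threshold.

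The unstimulated arrays were ordered alike for nearly every member. Unstimulated replicate 1 was the highest of its group for 39 of the 43 members, where it was highest for 39.5% of all genes. Unstimulated replicate 2 was the lowest for 41 members, where it was lowest for 34.8% of all genes. Relative to each gene's mean over the 6 arrays, the median member stood at −0.12, −0.19 and −0.21 on the PMA arrays and at 0.39, −0.01 and 0.14 on the unstimulated arrays. The unstimulated arrays were therefore further apart in these genes than the PMA arrays were. Unstimulated replicate 1 also stood apart in other genes. It was the lowest of its group for 4 of the 5 macrophage markers, with MMP9 at 6.47, 7.73 and 7.74 and ITGAX at 8.62, 9.75 and 9.63 on the unstimulated arrays, and FN1 was the exception. Of the 6 monocyte markers it was lowest for ITGAM, CSF1R and CD14, with CD14 at 7.51, 9.67 and 9.65, and highest for SPI1, LYZ and CD68. CDKN1A, which encodes the cyclin-dependent kinase inhibitor p21, was 6.93, 7.81 and 7.84 on the same arrays. The part of these differences in the members' order was not tested, and without unstimulated replicate 1 the members' median was −0.22, with 14 fallen.

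**Figure D3:**
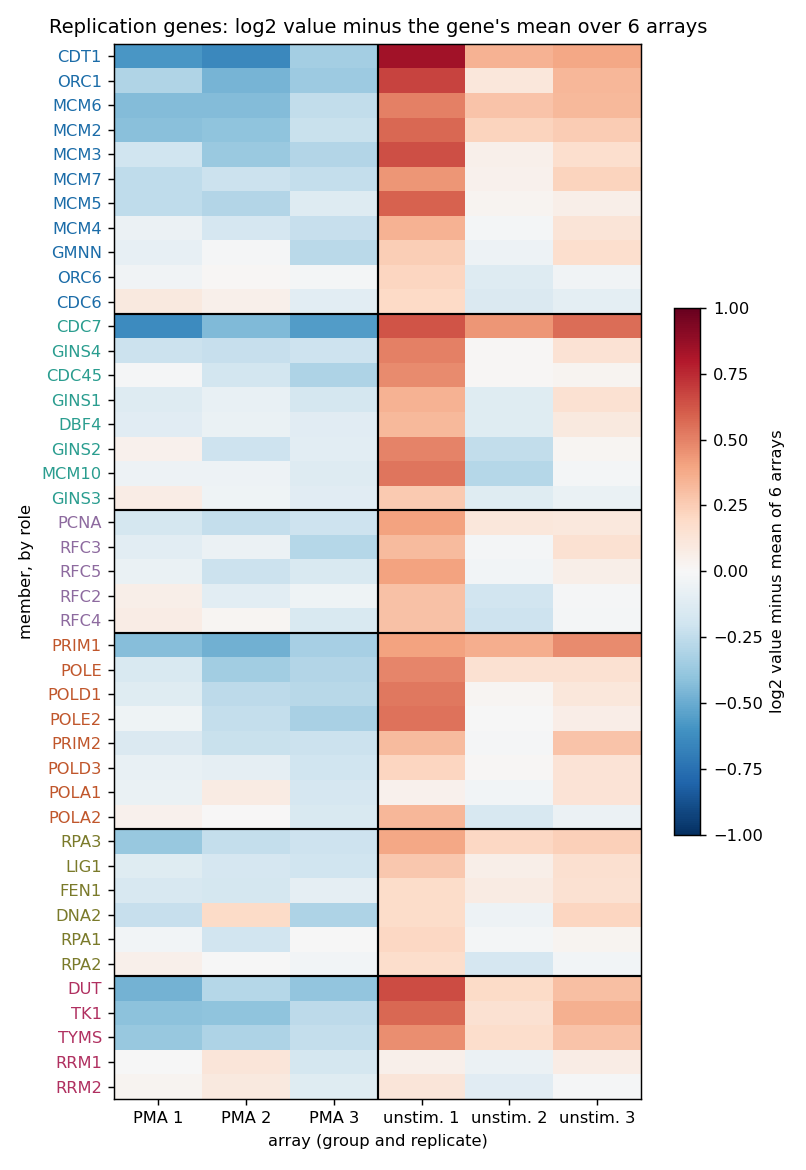
Heat map of the 43 members by array, with PMA replicates 1 to 3 on the left and unstimulated replicates 1 to 3 on the right. Colour is the log2 value minus the gene's mean over 6 arrays, and lines separate the roles in the order licensing, firing, clamp, polymerases, strand maturation and deoxynucleotide supply. The unstimulated replicate 1 column is the reddest, and it was the highest of its group for 39 members.

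Of the 11 origin licensing genes 6 fell (54.5%) and none rose, with a median of −0.47, where 13.2% of all genes fell. CDT1, which brings the MCM ring to origins, was 7.19, 7.13 and 7.43 on the PMA arrays, against 8.61, 8.13 and 8.16 on the unstimulated arrays. The groups stood well apart, and CDT1 fell by 1.05 ± 0.15 on the log2 scale (2.07-fold, adjusted p = 0.00197). ORC1, the largest subunit of the origin recognition complex, was 7.59, 7.43 and 7.52 with PMA and 8.56, 8.001 and 8.22 without. It fell by 0.75 ± 0.15 (adjusted p = 0.00742), and every PMA array was below every unstimulated one. ORC6, the smallest subunit, was 7.65, 7.69 and 7.66 with PMA and 7.90, 7.55 and 7.65 without, and its groups overlapped (−0.03 ± 0.11, adjusted p = 0.878).

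CDC6, the partner of CDT1 in loading, did not pass and was the member with the highest fold change. It was 8.95, 8.91 and 8.75 on the PMA arrays, against 9.05, 8.71 and 8.76 on the unstimulated arrays, a log2 fold change of 0.03 ± 0.12 (adjusted p = 0.900). Its 95% confidence interval ran from −0.25 to 0.31, so a 2-fold fall lies outside it. GMNN, which encodes geminin, the inhibitor that binds CDT1 protein, was 6.73, 6.80 and 6.55 with PMA and 7.06, 6.76 and 6.98 without. It did not pass (−0.24 ± 0.12, adjusted p = 0.186) and its groups overlapped at unstimulated replicate 2.

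The 6 subunits of the MCM2 to MCM7 ring were lower on every PMA array than on any unstimulated array, as were 22.0% of all genes. The test was passed by 4 of the 6, where 13.2% of all genes fell. MCM6 changed most: it was 8.73, 8.72 and 8.92 with PMA and 9.67, 9.44 and 9.49 without. It fell by 0.74 ± 0.10 (adjusted p = 0.00165). MCM2 was 8.69, 8.70 and 8.88 with PMA and 9.68, 9.33 and 9.36 without, and fell by 0.70 ± 0.12 (adjusted p = 0.00435). These 2 subunits kept their call whichever array was left out.

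Of the other 4 ring subunits, 2 passed. MCM3 fell by 0.58 ± 0.16 (adjusted p = 0.0302) and MCM7 by 0.47 ± 0.12 (adjusted p = 0.0194). Both lost their call on leaving out the first or second PMA array or the third unstimulated array, where the highest adjusted p was 0.0929 for MCM3 and 0.0696 for MCM7. MCM5 (−0.45 ± 0.16, adjusted p = 0.0729) and MCM4 (−0.31 ± 0.12, adjusted p = 0.0956) did not pass. The introns of MCM7 hold the miRNA genes MIR25, MIR93 and MIR106B, whose own probe sets had log2 fold changes of −0.03, −0.04 and 0.09 and did not pass (adjusted p 0.671 to 0.942).

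Among the 8 genes of origin firing and helicase activation, 2 fell (25%) and none rose, with a median of −0.22. Of all genes 13.2% fell, as did 18.0% of those above the median gene in brightness. CDC7, the kinase that phosphorylates the loaded MCM ring, had the largest fall of all 43 members. It was 6.32, 6.50 and 6.39 on the PMA arrays, against 7.58, 7.39 and 7.51 on the unstimulated arrays. The gap between the groups was several times the spread within them, and CDC7 fell by 1.09 ± 0.10 (2.13-fold, adjusted p = 0.000184). It alone among the members also passed a test against a 1.5-fold change. DBF4, the subunit that activates CDC7, was 5.12, 5.17 and 5.13 with PMA and 5.56, 5.12 and 5.33 without. These were the lowest member values, below every array median, and DBF4 did not pass (−0.19 ± 0.12, adjusted p = 0.312).

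Of the GINS complex, whose 4 subunits bind the ring beside CDC45, only GINS4 passed. It was 7.72, 7.71 and 7.73 with PMA and 8.44, 7.95 and 8.09 without, and fell by 0.44 ± 0.13 (adjusted p = 0.0446). That call was lost without any one of the PMA arrays and without unstimulated replicate 1 or 3, with adjusted p up to 0.119. GINS1 (−0.25 ± 0.13), GINS2 (−0.18 ± 0.18) and GINS3 (−0.05 ± 0.12) did not pass, with adjusted p of 0.205, 0.560 and 0.820. GINS3 was 7.999, 7.88 and 7.81 with PMA and 8.19, 7.80 and 7.85 without, so its groups overlapped.

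CDC45, which completes the running helicase, was lower on every PMA array (8.91, 8.74 and 8.62, against 9.40, 8.94 and 8.95 on the unstimulated arrays) and did not pass (−0.34 ± 0.15, adjusted p = 0.144). MCM10, needed to activate the helicase, was 7.80, 7.80 and 7.72 with PMA and 8.39, 7.57 and 7.83 without. Its unstimulated arrays spanned more than the difference between groups (−0.15 ± 0.19, adjusted p = 0.640). Without unstimulated replicate 1 its log2 fold change was 0.08.

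The clamp fell and its loader did not pass. PCNA, the ring that holds polymerases on DNA, was 8.15, 8.10 and 8.12 on the PMA arrays, against 8.73, 8.45 and 8.43 on the unstimulated arrays. It fell by 0.41 ± 0.11 (1.33-fold, adjusted p = 0.0241), a call lost without PMA replicate 1 or 2 (adjusted p up to 0.076). Of the 4 RFC subunits listed, RFC3 (−0.30 ± 0.12, adjusted p = 0.0993) and RFC5 (−0.29 ± 0.13, adjusted p = 0.149) were lower on every PMA array, and their groups did not overlap. RFC2 (−0.06 ± 0.13, adjusted p = 0.815) and RFC4 (−0.04 ± 0.14, adjusted p = 0.882) overlapped. RFC4 was 10.10, 10.04 and 9.87 with PMA and 10.31, 9.82 and 10.00 without, and its 95% confidence interval ran from −0.37 to 0.29. The group of 5 had a median of −0.29.

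Of the 8 polymerase and primase genes 3 fell (37.5%) and none rose, with a median of −0.40, where 13.2% of all genes fell. PRIM1, the catalytic subunit of primase, which makes the RNA primers, was 9.16, 9.09 and 9.24 on the PMA arrays, against 9.98, 9.94 and 10.05 on the unstimulated arrays. The unstimulated arrays were close together for this gene, with replicate 3 and not replicate 1 the highest. PRIM1 fell by 0.83 ± 0.09 (1.77-fold, adjusted p = 0.000467), and its fold change stayed between −0.87 and −0.79 whichever array was left out. PRIM2, the other primase subunit, was 8.48, 8.40 and 8.41 with PMA and 8.94, 8.61 and 8.91 without. It fell by 0.39 ± 0.11 (adjusted p = 0.0358), a call that held in the leave-one-out fits only without unstimulated replicate 2.

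Primase works as one complex with polymerase alpha, whose 2 genes did not pass. POLA1, the catalytic subunit, had a log2 fold change of −0.10 ± 0.10 (adjusted p = 0.538), and POLA2 one of −0.07 ± 0.14 (adjusted p = 0.771). POLA2 was 8.51, 8.47 and 8.32 with PMA and 8.80, 8.31 and 8.41 without, so 2 of the PMA arrays lay above 2 of the unstimulated arrays. The 95% confidence intervals, −0.34 to 0.13 for POLA1 and −0.40 to 0.25 for POLA2, did not reach a 2-fold change. Smaller falls lie inside them: that of PRIM2 (0.39) lies within the interval of POLA2, and that of FEN1 (0.28) within both.

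For the 4 member genes of polymerases delta and epsilon, every PMA array was below every unstimulated array, as for 22.0% of all genes. Among subunits of the same enzymes outside the 43, this was also so for POLD4, which did not pass (−0.34 ± 0.11, adjusted p = 0.0545). It was not so for POLD2 and POLE3, whose groups overlapped. POLE4 had every PMA array above every unstimulated array and did not pass (0.24 ± 0.11, adjusted p = 0.145). POLE, the catalytic subunit of polymerase epsilon, was 8.24, 8.04 and 8.10 with PMA and 8.88, 8.55 and 8.54 without. It fell by 0.53 ± 0.12 (adjusted p = 0.0142), with an adjusted p of 0.0528 without PMA replicate 2. The polymerase delta genes POLD1 (−0.44 ± 0.14, adjusted p = 0.0565) and POLD3 (−0.24 ± 0.09, adjusted p = 0.102) and the epsilon subunit POLE2 (−0.40 ± 0.16, adjusted p = 0.108) did not pass, although their groups did not overlap. Without unstimulated replicate 2, POLD1 passed (adjusted p = 0.0498).

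Among the 6 genes of strand maturation and single-strand binding 3 fell (50%) and none rose, with a median of −0.26. Of all genes 13.2% fell. RPA3, the smallest subunit of the protein that coats single-stranded DNA, was 6.25, 6.40 and 6.43 on the PMA arrays, against 7.02, 6.84 and 6.87 on the unstimulated arrays. It fell by 0.55 ± 0.10 (1.46-fold, adjusted p = 0.00476). The other subunits of the same trimer did not pass: RPA1 changed by −0.15 ± 0.10 (adjusted p = 0.364) and RPA2 by 0.01 ± 0.11 (adjusted p = 0.950). RPA2 was 6.97, 6.92 and 6.90 with PMA and 7.10, 6.76 and 6.90 without, so its groups overlapped fully.

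FEN1, which removes the flap at the end of each primer, fell by 0.28 ± 0.08 (adjusted p = 0.0427), and LIG1, the ligase that joins the fragments, by 0.33 ± 0.09 (adjusted p = 0.0333). Both were lower on every PMA array, with FEN1 at 8.35, 8.34 and 8.42, against 8.70, 8.59 and 8.67 on the unstimulated arrays. Neither call was steady: FEN1 lost it whichever array was left out (adjusted p up to 0.130), and LIG1 without every array but unstimulated replicate 2 (up to 0.0939). DNA2, a nuclease and helicase that trims long flaps, did not pass (−0.23 ± 0.15, adjusted p = 0.322), and its PMA replicate 2 value of 7.07 lay among the unstimulated values of 7.06, 6.83 and 7.10.

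Of the 5 deoxynucleotide supply genes 3 fell (60%) and none rose, with a median of −0.62, where 13.2% of all genes fell. The 3 enzymes that provide thymidylate or guard it against uracil fell, and the 2 subunits of ribonucleotide reductase did not pass. DUT, which hydrolyses dUTP, was 7.68, 7.87 and 7.76 on the PMA arrays, against 8.81, 8.35 and 8.46 on the unstimulated arrays, and fell by 0.77 ± 0.13 (1.70-fold, adjusted p = 0.00449). TK1, the S-phase thymidine kinase, was 9.03, 9.04 and 9.18 with PMA and 10.01, 9.59 and 9.79 without, and fell by 0.72 ± 0.12 (adjusted p = 0.00425). TYMS, thymidylate synthase, was 10.05, 10.12 and 10.19 with PMA and 10.90, 10.60 and 10.71 without, and fell by 0.62 ± 0.10 (adjusted p = 0.00382). All 3 stood clear of the unstimulated arrays and kept their call whichever array was left out.

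Ribonucleotide reductase converts ribonucleotides to deoxynucleotides, and RRM2 is its S-phase subunit. RRM2 was 9.11, 9.18 and 8.97 on the PMA arrays, against 9.21, 8.97 and 9.07 on the unstimulated arrays. Its log2 fold change was 0.00 ± 0.10 (adjusted p = 0.991), the smallest of the 43, with a 95% confidence interval from −0.24 to 0.24. RRM1, the catalytic subunit, was 10.10, 10.22 and 9.92 with PMA and 10.15, 10.04 and 10.18 without (−0.04 ± 0.10, adjusted p = 0.826). Its interval ran from −0.29 to 0.20. For both subunits the values of the groups were interleaved.

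**Figure D4:**
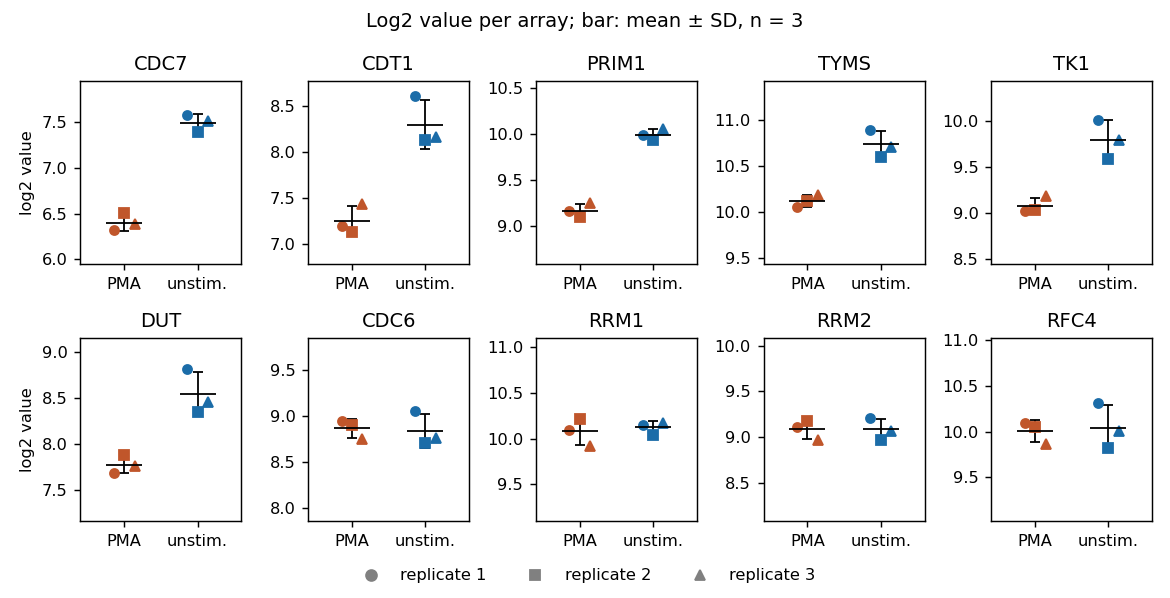
Log2 value on each array for 10 members, PMA arrays left and unstimulated arrays right, with the mean ± SD (n = 3). Each panel spans 2 log2 units. CDC7, CDT1, PRIM1, TYMS, TK1 and DUT have separate groups, and CDC6, RRM1, RRM2 and RFC4 overlap.

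Partner genes were also set against each other within each array, for 6 pairs picked after their values were seen. The log2 fold change of the first gene minus that of the second was −0.90 for CDC7 and DBF4, −0.81 for CDT1 and GMNN, and −0.62 for TYMS and RRM2. It was −0.44 for PRIM1 and PRIM2, −0.40 for RPA3 and RPA1, and 0.55 for RRM2B, described with the other nucleotide pool genes, and RRM2. For each of the 6 pairs, the within-array differences of the PMA arrays did not overlap those of the unstimulated arrays, and the CDC7 minus DBF4 difference had an SD of 0.07 among PMA arrays and 0.13 among unstimulated arrays. Since the pairs were picked for their differences, these values are a description with no test. All DBF4 values lay below every array median, and the part of this in the difference between CDC7 and DBF4 was not tested.

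As among the members, most related genes of the replication machinery outside the 43 did not pass. Of 34 other replisome, origin and fork genes, 10 fell (29.4%) and 1 rose (2.94%), with a median of −0.16. Of all genes 13.2% fell and 13.2% rose. The largest falls were RNASEH2B, a subunit of the nuclease that removes ribonucleotides from DNA (−1.65 ± 0.10, adjusted p = 3.16e-05), and TICRR, a factor of helicase activation (−1.16 ± 0.09, adjusted p = 0.00012). TOP2A, the topoisomerase that untangles replicated DNA, fell by 0.70 ± 0.11 (adjusted p = 0.00326), and CHAF1A, a histone chaperone at the fork, by 0.54 ± 0.12 (adjusted p = 0.0118). The gene that rose was MCMBP, an MCM-binding protein (0.38 ± 0.10, adjusted p = 0.0235), and no gene of the list rose on dropping either of PMA replicates 1 and 2 or on dropping unstimulated replicate 2. The number that fell was 4 without PMA replicate 1, 6 without PMA replicate 2 and 4 without unstimulated replicate 3, and 5 with arrays centred on their medians. Of all genes, 8.67%, 9.54%, 9.09% and 9.78% fell in these fits, in the same order.

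Of 30 other nucleotide pool genes measured, 9 fell (30%) and 3 rose (10%), with a median of −0.12, where 13.2% of all genes fell and 13.2% rose. SAMHD1, which breaks deoxynucleotides down and is known for this in macrophages, fell by 1.58 ± 0.09 (adjusted p = 2.29e-05). It averaged 9.86 ± 0.03 on the PMA arrays and 11.44 ± 0.09 on the unstimulated arrays (SD, n = 3 each). IMPDH2 (−0.95 ± 0.12, adjusted p = 0.00113) and IMPDH1 (−0.77 ± 0.11, adjusted p = 0.0015), the enzymes that commit purines to guanine nucleotides, fell, as did the mitochondrial kinase CMPK2 (−0.87 ± 0.13, adjusted p = 0.00186). RRM2B, the reductase subunit that serves cells outside S phase, rose by 0.55 ± 0.16 (adjusted p = 0.0362). That call was lost on leaving out replicate 1 or 2 of either group (adjusted p up to 0.115). DCTD (0.70) and CMPK1 (0.43) were the other genes that rose, named after their values were seen, as was MCMBP above. The number that fell was 5 without PMA replicate 1, 6 on dropping PMA replicate 2 or unstimulated replicate 1, and 7 on dropping any other array. The number that rose was 5 on dropping PMA replicate 3, 3 on dropping unstimulated replicate 3 and 2 on dropping any other array. Over all genes, 8.67% to 13.3% fell and 1726 to 2593 genes rose on dropping 1 array.

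Regulators of replication genes were split: of 25 genes of the E2F, RB and DREAM groups, 7 rose (28%) and 8 fell (32%), with a median of 0.08. Of all genes 13.2% rose and 13.2% fell. CDKN1A, the cyclin-dependent kinase inhibitor p21, rose by 2.43 ± 0.24 (adjusted p = 0.000303). E2F7, an E2F that represses transcription, rose by 0.88 ± 0.20 (adjusted p = 0.0155), without PMA replicate 1 or unstimulated replicate 2 not past the threshold (adjusted p up to 0.0615). RB1, which restrains E2F factors, rose by 0.80 ± 0.13 (adjusted p = 0.00329). CDKN1B, the inhibitor p27, fell by 0.79 ± 0.19 (adjusted p = 0.0188), a call lost on leaving out PMA array 1 or 2 or unstimulated array 2 or 3 (adjusted p up to 0.0746). E2F1, an activator of many members, did not pass (0.08 ± 0.13, adjusted p = 0.736). The other genes of the list that rose were E2F3, TFDP2, LIN52 and CCNE2. The others that fell were E2F8, RBL1, RBL2, MYBL2, FOXM1, LIN9 and CCNA2, all named after their values were seen. The counts were 4 risen and 4 fallen without PMA replicate 1, 5 and 5 without PMA replicate 2, 4 and 6 without unstimulated replicate 2, and 7 and 5 without unstimulated replicate 3. Over all 18417 genes, 1726, 2011, 1789 and 1932 rose and 1597, 1757, 1818 and 1675 fell in these fits, in the same order.

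**Figure D5:**
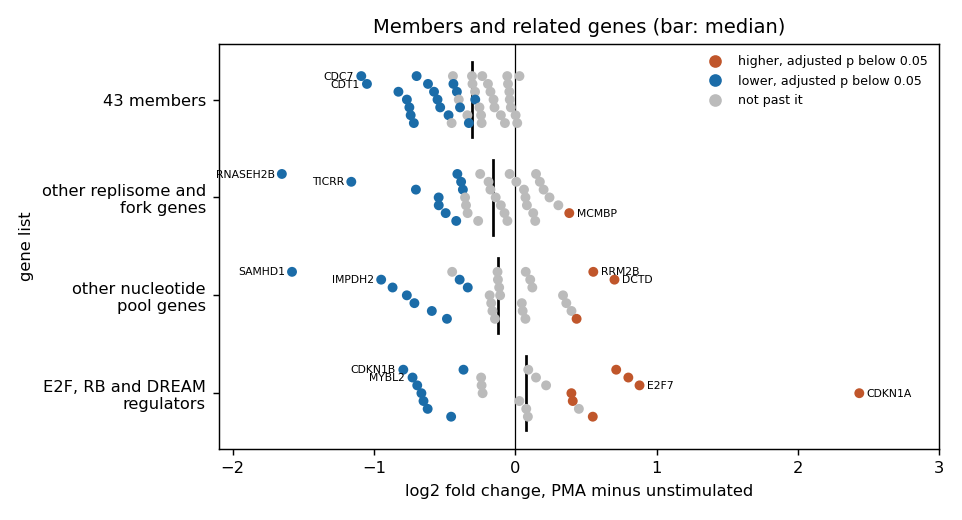
Log2 fold changes, PMA minus unstimulated, of the 43 members and of 3 lists of related genes. Each point is a gene, coloured by its call, and bars mark medians of −0.31, −0.16, −0.12 and 0.08 from top to bottom. SAMHD1 and RNASEH2B lie left of every member, and CDKN1A lies far right.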

How the data were processed

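Total RNA of 3 PMA-treated and 3 unstimulated THP-1 samples was measured on Affymetrix arrays. The deposited table holds log2 values for 33297 probe sets. RMA and Partek are named per the submitters' processing notes, with versions not given in the sources used here, and the values were used as deposited.

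Of the probe sets, 19460 carry 1 gene symbol, 1754 several and 12083 none here. Gene IDs of 19429 were found in the RefSeq table (GRCh38.p14), which gave 18417 genes, and 769 of these have several probe sets, of which the one with the highest mean was kept. The model had 2 groups of 3 arrays and no covariates, was run over the whole gene table in limma 3.58.1 (R 4.3.3), and its p-values were adjusted by the Benjamini-Hochberg method across that table. Figures were drawn with matplotlib 3.10.9. The fit was tested on simulated data.

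The members and gene lists were chosen with earlier results of these data known. By the rule for named genes, values on every array are given for the 3 largest falls, the 3 highest fold changes and the largest and smallest change of each role, and others were added after their values were seen to fill the complexes. Of each related list the 4 largest changes past the threshold are named, with SAMHD1, RRM2B, E2F1 and CDKN1A in any case, and others after their values were seen. Alternatives covered scaling, filters on dim genes, the handling of probe sets, the variance model, thresholds, a replicate block and each array left out.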

Additional observations from a re-analysis of the deposited data

How the results depend on the processing

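Under 21 alternatives no member was called higher, and the number called lower, 18 as reported, was 11 with each array centred on its median, 11 with a gene-wise test without shared variance, 10 at an adjusted p of 0.01, 1 in a test against a 1.5-fold change and 2 with a 2-fold change also required. Leaving out 1 array at a time gave 10 to 18. Over all genes, 2423 lower and 2431 higher as reported, the counts were 1458 and 1385 with the gene-wise test, 1315 and 1509 at an adjusted p of 0.01, 443 and 682 against a 1.5-fold change, and 590 and 952 with a 2-fold change. With every probe set tested 3854 were lower, and leaving out 1 array gave 1597 to 2449 lower. The cause of these shifts was not tested, beyond the stricter thresholds and fewer arrays themselves. Whether the replicate numbers pair the arrays cannot be settled with 3 arrays per group. Same-numbered arrays correlated at 0.18, −0.02 and 0.05 in their deviations, and differently numbered ones at −0.15 to 0.11. Not every array correlated best with its own number. With the replicate block 18 members were lower, FEN1 (adjusted p = 0.0803) and LIG1 (0.0559) not among them and POLD1 (0.0343) and POLE2 (0.0445) added. Among members, 11 changed sign somewhere, none of them past the threshold as reported, with adjusted p of at least 0.326 there. With arrays centred, the log2 fold change was 0.054 for ORC6, 0.034 for GINS3, 0.028 for RFC2, 0.046 for RFC4, 0.012 for POLA2 and 0.043 for RRM1. With cyclic loess it was 0.034 for ORC6, 0.010 for GINS3, 0.0074 for RFC2, 0.034 for RFC4 and 0.032 for RRM1, and with quantile normalization −0.0083 for RRM2. With array quality weights it was 0.017 for ORC6, 0.044 for GINS3, 0.016 for RFC2, 0.060 for RFC4 and 0.036 for POLA2. With unstimulated replicate 1 and PMA replicate 3 both left out it was 0.072 for ORC6, 0.10 for MCM10, 0.035 for GINS2, 0.11 for GINS3, 0.081 for RFC2, 0.16 for RFC4, 0.13 for POLA2 and 0.049 for RRM1. Leaving out 1 array gave −0.11 to 0.069 for ORC6, −0.33 to 0.076 for MCM10, −0.34 to 0.027 for GINS2, −0.12 to 0.068 for GINS3, −0.17 to 0.075 for RFC2, −0.15 to 0.096 for RFC4, −0.17 to 0.074 for POLA2, −0.11 to 0.035 for RRM1, −0.037 to 0.14 for CDC6, −0.068 to 0.11 for RPA2, −0.055 to 0.064 for RRM2 and −0.013 to 0.21 for E2F1, a regulator and no member.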
